A study of Mus musculus with 6 samples.

Results

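DEAD and DEAH box proteins are RNA helicases named after 4 letters of a conserved motif that binds ATP. They were taken here as every gene of the deposited table whose symbol begins with Ddx or Dhx and goes on with a number and at most 1 letter, with 3 such genes left out by name. This gave 50 of 55364 genes, 35 of them Ddx genes and 15 Dhx genes. The study measured total RNA of mouse morulae that developed from BDF1 x BDF1 zygotes injected with a control siRNA (control KD) or with an siRNA against *Yy1* (*Yy1* KD), the gene of the zinc finger transcription factor YY1. Embryos of both groups grew in KSOM medium, and a group had 3 libraries, each of pooled morulae. An siRNA lowers RNA that is present after the injection, so protein inherited from the oocyte is not removed directly. The study reported, from immunofluorescence of morulae, that YY1 protein was efficiently depleted after *Yy1* KD. The labels do not say whether the 3 replicates of a group came from separate collections, so p-values measure the spread between these libraries, which may be technical.

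Helicases of this superfamily use ATP to open short RNA duplexes or to strip proteins from RNA, and each step of the life of an RNA has members of its own. The spliceosome is driven from one conformation to the next by a fixed order of DEAD and DEAH box proteins, ribosomal RNA is folded and cut with the help of many others in the nucleolus, and further members pass mRNA through the nuclear pore, start its translation or store and destroy it. Cleavage-stage embryos begin to make their own mRNA and ribosomes after fertilization, and these helicases belong to the machinery for both.

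The consensus of the DNA sites that YY1 binds is GCCATNTT. The motif was searched on both strands in promoter windows, from 250 bases before to 50 bases after each start annotated by RefSeq on GRCm38.p6, and 44 of the 50 helicase genes had a window there, 55 windows in all. *Ddx6*, *Ddx11*, *Ddx23*, *Ddx39*, *Dhx38* and *Dhx58* had no entry in the table. The motif lay in 8 of the 55 windows (14.5%), against 6.05% of all 32851 windows and 8.61% of the 12318 windows of genes tested below, with no test made. The 8 matches are printed with the surrounding letters, 5′ to 3′ on the strand of the gene, because they are the sites at which sequence and measured change can be set side by side. Capitals mark the motif or its reverse complement.
*Dhx35* chr2:158794638-158794667, + strand: atccgagagacAATATGGCcgcgcggcatc
*Ddx19b* chr8:111031708-111031737, - strand: gaagcctaaccGCCATGTTgcgccgcgatg
*Dhx15* chr5:52190497-52190526, - strand: tgccctcgtcgcggccGCCATTTTagctcc
*Dhx36* chr3:62506970-62506999, - strand: cgggcccggacGCCATTTTcagcggttgag
*Ddx47* chr6:135011628-135011657, + strand: agcccacgagcAAGATGGCggcggacgagg
*Ddx5* chr11:106788626-106788655, - strand: ggaggggcgagAACATGGCggattccggaa
*Ddx54* chr5:120612952-120612981, + strand: ccattgataaaGCCATGTTgacgctccgcc
*Dhx57* chr17:80290683-80290712, - strand: caaaatcagcaGCCATATTagtctagaaac

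The match of *Dhx35* lay 158 bases before the start and outside every gene of the GENCODE annotation. In *Ddx19b*, *Ddx47*, *Dhx15* and *Dhx36* the match lay downstream of the start, at bases 26, 28, 37 and 1 of the transcript, and GENCODE gave those bases as 5′ untranslated exon, in *Ddx19b* and *Ddx47* also as coding sequence. The match of *Ddx5* lay 150 bases before 1 of its 3 RefSeq starts, in an intron of the gene. That of *Ddx54* lay 167 bases before the RefSeq start, in an untranslated exon of a longer GENCODE model, and that of *Dhx57* lay 225 bases before the start, in an intron of the neighbour *Morn2*. Of these 8 genes, *Dhx35* was downregulated, *Ddx19b* was upregulated and 6 were not called, as described below. The motif thus stood beside a gene that fell, a gene that rose and genes that were not called.

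Levels are given as TPM, a unit in which read pairs are counted per base of exon and each library is scaled to the same total. Read pairs were recovered as TPM times exon length, divided by a unit inferred for each library from its low values. This gave an estimate of between 11793500 and 24417800 read pairs on genes per library. *Yy1*, the target of the siRNA (ENSMUSG00000021264.12, chr12:108792973-108820148, + strand), was at 96.0, 100.2 and 89.8 TPM in control KD replicates 1, 2 and 3 and at 8.73, 8.90 and 8.32 TPM in the *Yy1* KD replicates, which was 9.07% of control. All 11 morula markers, among them *Pou5f1* and *Cdx2*, were at 1 TPM or more in every library, and their summed level ran from 2245 to 2544 TPM in control KD and from 1901 to 2213 TPM in *Yy1* KD morulae. These sums did not overlap. Of the 11 markers, 9 had a log2 fold change below 0 and 2 above. In 3 of them every *Yy1* KD library was lower than every control KD library, where 17.2% of all genes tested were. *Sox2* was at 8.73, 9.93 and 14.3 TPM in control KD and at 7.03, 5.75 and 4.02 TPM in *Yy1* KD libraries. Only *Tfap2c* was called downregulated, where 4.2% of all genes tested were, and the part of these marker levels in the results was not tested. Of 9 markers of cumulus and granulosa cells, 5 were at 0 in every library (*Cyp19a1*, *Fshr*, *Has2*, *Ptx3* and *Tnfaip6*), and the 9 together reached at most 3.39 TPM. The summed level of 3 Y-linked genes ran from 6.74 to 10.3 TPM in control KD and from 4.27 to 6.03 TPM in *Yy1* KD libraries, which did not overlap. Of these genes 2 were tested, 0 were called, and 1 was lower in every *Yy1* KD library. *Xist* was at 49.7, 28.2 and 84.2 TPM in control KD and at 26.4, 30.1 and 58.5 TPM in *Yy1* KD libraries, which overlapped. No helicase gene described here lies on a sex chromosome, and the part of the sex make-up of the pools in the results was not tested. In pooled embryos, fewer cells that use a gene and less of its RNA per cell cannot be told apart.

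Most helicase genes were well expressed in morulae. Mean TPM in control KD libraries was over 100 for 8 genes, from 50 to 100 for 16, from 10 to 50 for 15, from 1 to 10 for 8 and under 1 for 3. *Ddx21*, a nucleolar helicase of ribosomal RNA processing, and *Ddx5*, a cofactor of transcription and splicing, stood highest at 466 and 441 TPM. *Ddx18* at 167 TPM and *Ddx39*, a helicase of mRNA export, at 151 TPM came next. The 3 lowest were *Ddx25*, a helicase of male germ cells, and *Ddx58* and *Dhx58*, cytoplasmic sensors of viral RNA, and none of them reached 1 TPM in any library. The median coefficient of variation over 3 libraries was 6.94% in control KD and 7.67% in *Yy1* KD, so neighbours in the order of levels differ beyond their spread only where the gap is larger than this, as between *Ddx5* and *Ddx18*. The 50 genes together summed to 3316, 3274 and 3295 TPM in control KD replicates 1, 2 and 3, against 3628, 3494 and 3472 TPM in *Yy1* KD replicates 1, 2 and 3. The groups did not overlap, and a two-sided exact permutation test gave p = 0.1, the smallest possible with 3 against 3 libraries. Without the genes called below, the sum was 2429 ± 6.0 TPM in control KD, against 2502 ± 48.4 TPM in *Yy1* KD (SD, n = 3), and the libraries again did not overlap.

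**Figure D1:**
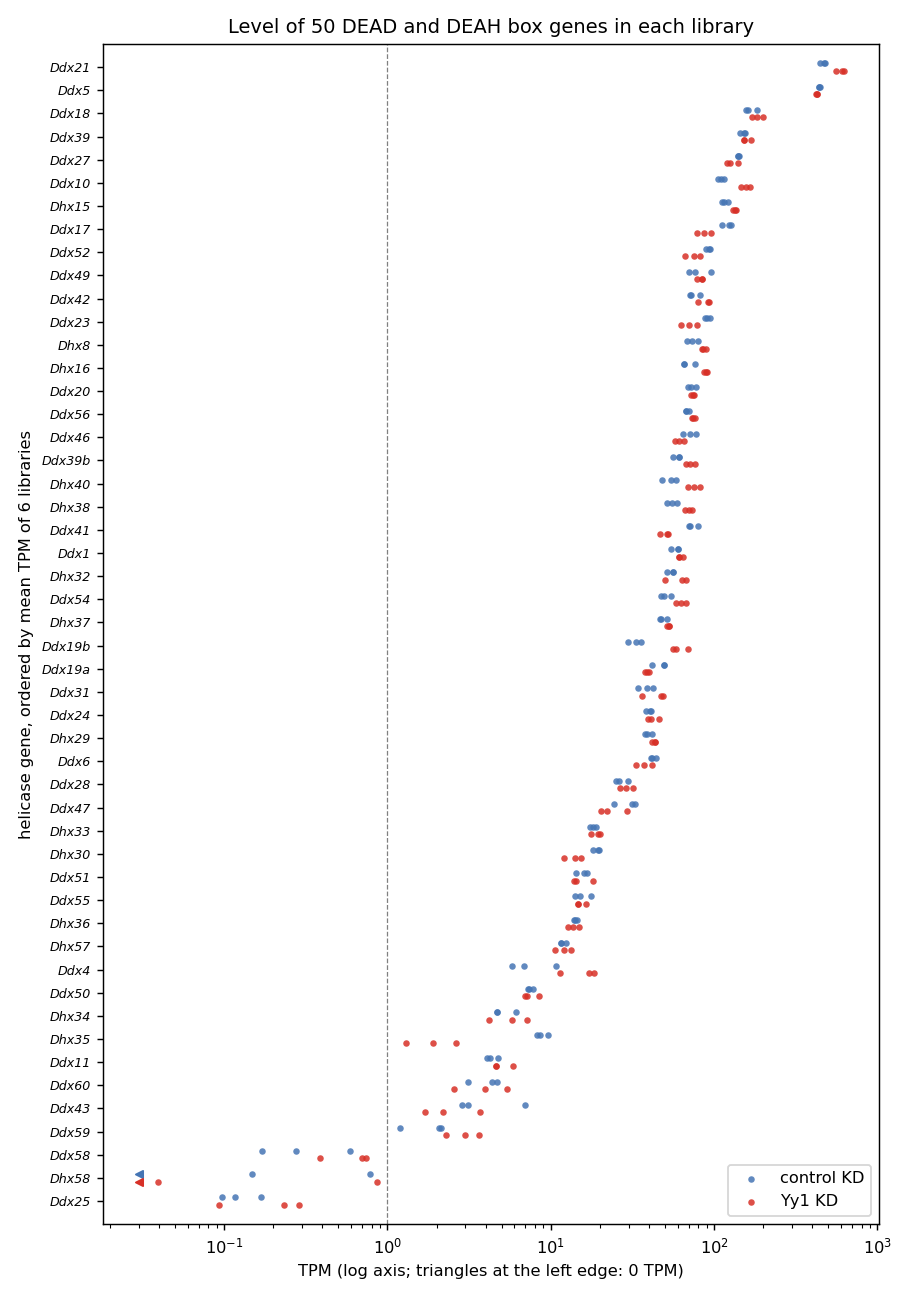
Level of each of the 50 DEAD and DEAH box genes in the 3 control KD (blue) and 3 *Yy1* KD (red) libraries, in TPM on a log axis, ordered by the mean of the 6 libraries. Most genes lie between 10 and 100 TPM with the 2 groups close together, *Dhx35* has its *Yy1* KD libraries far to the left of its control KD libraries, and *Ddx58*, *Dhx58* and *Ddx25* lie left of the dashed line at 1 TPM.

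The question asked of these genes was which of them differed between *Yy1* KD and control KD morulae. Of the 47 that reached 1 TPM in at least 3 of the 6 libraries, 3 were downregulated (*Dhx35*, *Ddx41* and *Ddx17*), 4 were upregulated (*Ddx19b*, *Ddx10*, *Dhx40* and *Ddx21*) and 40 were not called. A gene was called where limma, fitted to log2(TPM + 1) of all 17353 genes tested, gave a Benjamini-Hochberg adjusted p under 0.05. Over all genes tested, 4.2% were called downregulated and 1.92% upregulated, against 3 and 4 of 47 here, with 728 and 333 genes in all and 548 and 388 under quantile normalization. These shares are not matched for level or spread. Median control KD level was 47.6 TPM over the 50 helicase genes and 8.75 TPM over all genes tested, and median SE was 0.098 and 0.208. At a mean TPM of at least 5, limma called 3 of 43 helicase genes downregulated and 5 upregulated, against 841 and 378 of 10675 genes. For the 47 genes as a whole, the median log2 fold change was 0.08, against -0.02 over all genes tested, 30 were above 0 and 17 below, and 40 lay within 0.5 of 0. Of the 47, 18 had an unadjusted limma p under 0.05, against 4123 of 17353 genes. Limma-voom on read pairs recovered from TPM called 13 of the 47, against 2089 of 16931 genes. The *Yy1* KD and control KD libraries did not overlap in 15 genes that were higher and 8 that were lower, where 12.9% and 17.2% of all genes tested did so. The 35 Ddx genes gave 3 upregulated and 2 downregulated of 33 tested, with a median of 0.04, and the 15 Dhx genes gave 1 and 1 of 14 tested, with a median of 0.12.

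**Figure D2:**
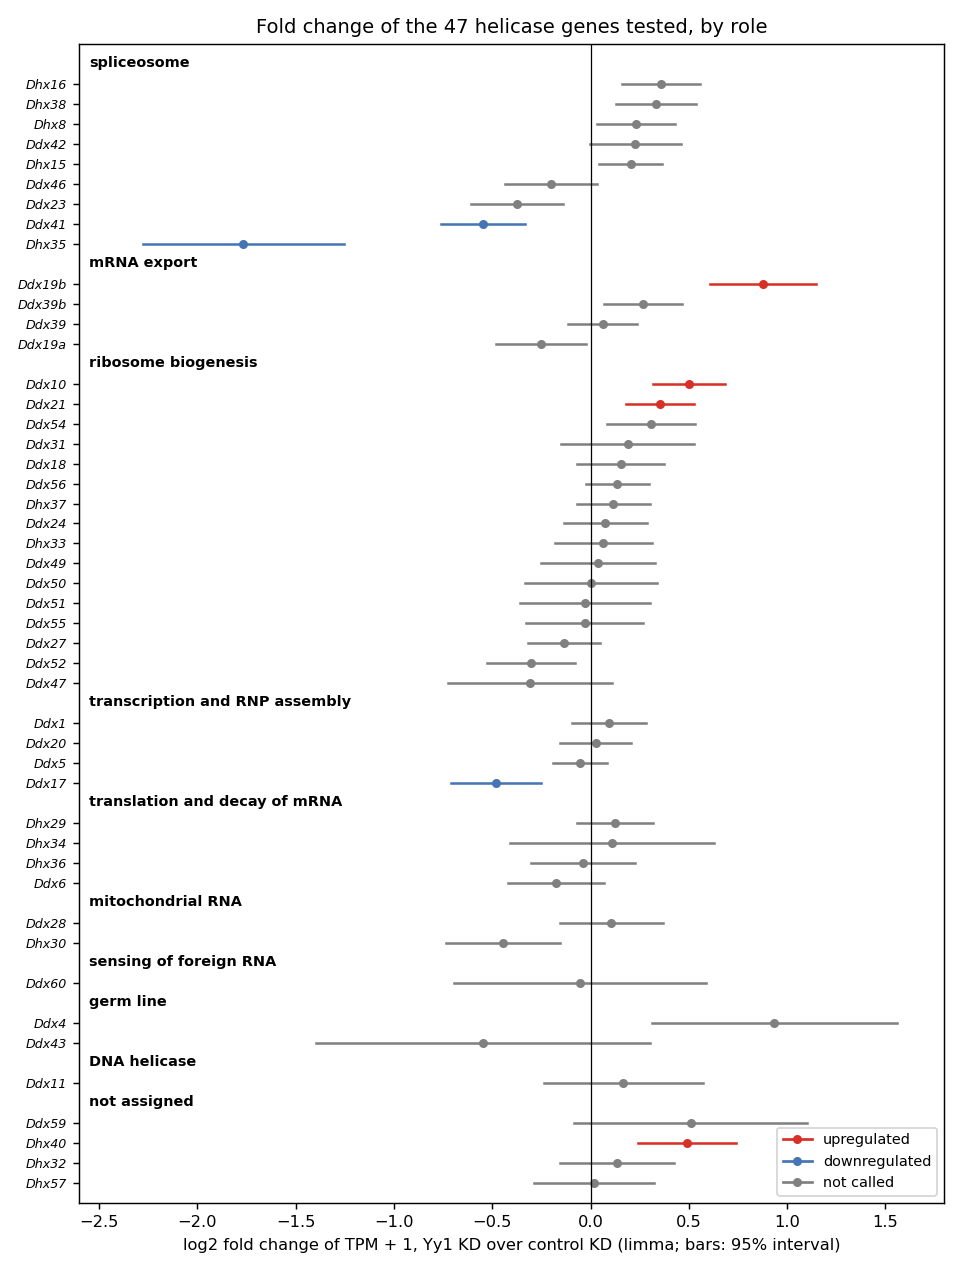
log2 fold change of TPM + 1, *Yy1* KD over control KD, for the 47 helicase genes tested, grouped by role, with bars for the 95% interval of limma. Upregulated genes are red, downregulated genes blue and genes not called grey, *Dhx35* stands alone at -1.77, *Ddx19b* is at 0.88, and 40 of the 47 genes lie within 0.5 of 0.

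The spliceosome holds 9 of these genes, and limma called 2 of them downregulated and 0 upregulated, where 4.2% and 1.92% of all genes tested were called. *Dhx35*, a DEAH box protein found in assembled spliceosomes (chr2:158794807-158858214, + strand), was at 9.60, 8.65 and 8.27 TPM in control KD and at 1.90, 1.30 and 2.62 TPM in *Yy1* KD libraries. Every *Yy1* KD library was far below every control KD library. The mean fell from 8.84 ± 0.687 to 1.94 ± 0.658 TPM (SD, n = 3), a log2 fold change of -1.77 (SE 0.21, limma adjusted p = 0.0126), and these levels rested on 37 to 462 read pairs per library. This was the largest fold change in size among the 47 genes tested. Whether the motif match of *Dhx35* printed above has a part in it was not tested. *Ddx41*, a DEAD box protein of the catalytic spliceosome whose inherited mutations predispose people to myeloid leukaemia (chr13:55530410-55536658, - strand), was at 71.1, 70.1 and 80.0 TPM in control KD and at 52.3, 51.3 and 46.7 TPM in *Yy1* KD libraries. The groups did not overlap, and the log2 fold change was -0.55 (SE 0.09, limma adjusted p = 0.0242). *Ddx41* shares 467 of its 2687 bases of exon with *Gm46416* on the other strand, which has 523 bases of exon. *Gm46416* went from 67.9 ± 5.43 to 52.4 ± 0.421 TPM (limma adjusted p = 0.0532). Since strand was ignored in the counting, reads on the shared bases cannot be told apart.

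The other 7 spliceosomal helicases were not called by limma on TPM, and their libraries separated in both directions. With limma-voom on the recovered read pairs, *Ddx23*, *Dhx15*, *Dhx16* and *Dhx38* were called, and *Dhx16* was also called by limma after median-ratio scaling, quantile normalization or a filter at a mean TPM of 5. Counting *Dhx35* and *Ddx41*, limma-voom called 6 of the 9 spliceosomal genes, and 7 had an unadjusted limma p under 0.05. Among all genes, limma-voom called 2089 of 16931, and 4123 of 17353 had such a p. Of the 9 spliceosomal genes, 4 were higher in all *Yy1* KD libraries than in all control KD libraries and 3 were lower. Over all genes tested, 12.9% were higher and 17.2% lower in this way. The 4 higher genes encode DEAH box proteins that act in turn during splicing, and *Dhx35*, also a DEAH box gene, was among the 3 lower. *Dhx16*, which prepares the spliceosome for the first reaction, was at 75.9, 65.8 and 65.7 TPM in control KD and at 90.2, 89.1 and 86.7 TPM in *Yy1* KD libraries, and its log2 fold change was 0.36 (limma adjusted p = 0.0564). *Dhx38*, which acts between the reactions, was at 55.2 ± 3.83 and 69.8 ± 3.46 TPM (log2 fold change 0.34, limma adjusted p = 0.0703). *Dhx8*, which releases the spliced mRNA, was at 73.6 ± 5.90 and 86.4 ± 2.92 TPM (0.23, limma adjusted p = 0.156), and *Dhx15*, which takes the spent spliceosome apart and was the most abundant of the 9, was at 116 ± 5.14 and 134 ± 3.06 TPM (0.20, limma adjusted p = 0.130). *Ddx23*, which acts earlier, when the spliceosome is activated, lay on the other side, at 94.9, 88.6 and 90.6 TPM in control KD, against 78.8, 62.7 and 69.9 TPM in *Yy1* KD libraries (log2 fold change -0.38, limma adjusted p = 0.0759). *Ddx42* and *Ddx46*, which act with the U2 particle at the branch site, overlapped between the groups, with log2 fold changes of 0.23 and -0.20. The summed level of the 9 genes was 634 ± 14.3 TPM in control KD, against 651 ± 16.1 TPM in *Yy1* KD libraries, and the groups overlapped.

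**Figure D3:**
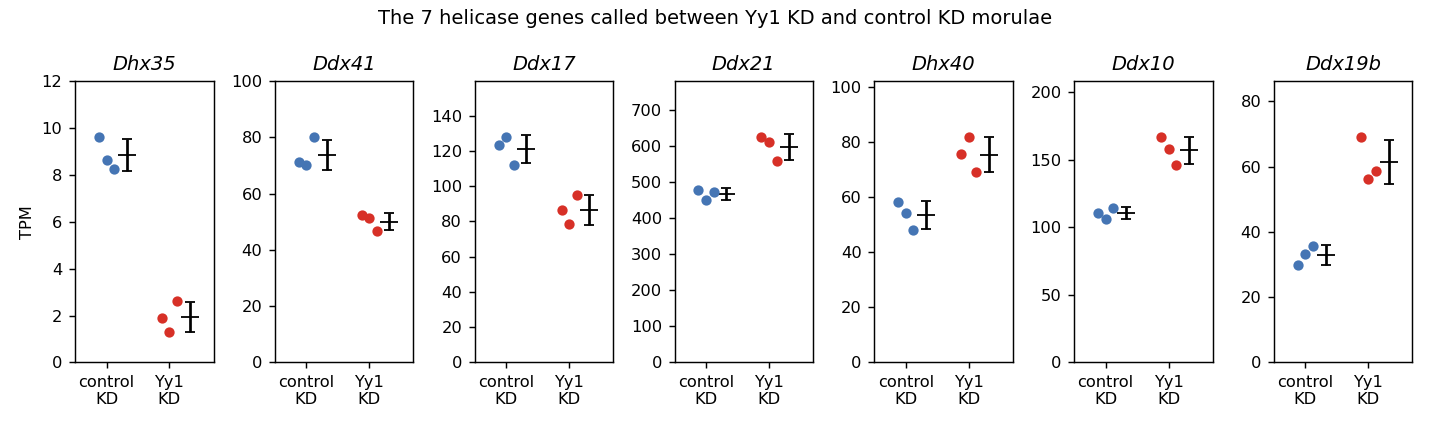
TPM of the 7 helicase genes called, in each of the 3 control KD (blue) and 3 *Yy1* KD (red) libraries, with black bars for the mean and SD of each group and a linear axis from 0. The groups do not overlap in any of the 7 genes, and *Dhx35* shows the widest gap for its level, from 8.84 to 1.94 TPM.

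Among the 4 helicases of mRNA export, limma called 1 upregulated, *Ddx19b*, and 0 downregulated, where 1.92% and 4.2% of all genes tested were called. At an unadjusted p under 0.05 there were 3, and limma-voom called 1, against 4123 of 17353 and 2089 of 16931 over all genes. *Ddx19b* works at the cytoplasmic face of the nuclear pore, where it strips export proteins from the emerging mRNA (chr8:111003188-111031751, - strand). Its level was 29.7, 33.2 and 35.8 TPM in control KD, against 69.0, 56.3 and 58.8 TPM in *Yy1* KD libraries. All 3 *Yy1* KD libraries were far above the control KD libraries, and the mean rose from 32.9 ± 3.06 to 61.4 ± 6.72 TPM (log2 fold change 0.88, SE 0.11, limma adjusted p = 0.0130). Its close relative *Ddx19a*, which lies 5388 bases away on the same strand, was at 41.6, 49.2 and 49.4 TPM in control KD and at 39.1, 40.0 and 37.9 TPM in *Yy1* KD libraries. This gene was lower in every *Yy1* KD library but not past the threshold (log2 fold change -0.25, limma adjusted p = 0.172). *Ddx39b*, which loads export factors onto mRNA as part of the TREX complex, was at 59.3 ± 3.15 and 71.6 ± 4.15 TPM (0.27, limma adjusted p = 0.111), and its relative *Ddx39* was at 151 ± 5.32 and 157 ± 9.39 TPM (0.06, limma adjusted p = 0.663). The ratio of *Ddx39* to *Ddx39b* was 2.54 ± 0.0672 in control KD and 2.21 ± 0.189 in *Yy1* KD libraries (SD, n = 3), and it was lower in every *Yy1* KD library.

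In TPM, the neighbours *Ddx19a* and *Ddx19b* stood in opposite order in the 2 groups. Within a library, the ratio of *Ddx19b* to *Ddx19a* was 0.714, 0.675 and 0.725 in control KD and 1.76, 1.41 and 1.55 in *Yy1* KD libraries. *Ddx19a* thus had the higher TPM in every control KD library and *Ddx19b* in every *Yy1* KD library. TPM divides by exon length, here 6742 bases for *Ddx19b* and 2957 for *Ddx19a*. Which of the 2 stands in front within a library therefore depends on these lengths. The mean log2 ratio was 1.15 higher in *Yy1* KD libraries, and a two-sided exact permutation test gave p = 0.1, the smallest possible. Their transcripts share 12.4% of the 50-nt stretches of *Ddx19b* and 28.1% of those of *Ddx19a*, with a longest shared run of 275 nt, so the division of reads between them is uncertain. The sum of the pair was 79.6 ± 7.35 TPM in control KD, against 100.4 ± 6.70 TPM in *Yy1* KD libraries. This pair and the other 3 pairs of relatives whose ratios are given were chosen after their values had been seen.

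Ribosome biogenesis is served by 16 of these genes, and limma called 2 of them upregulated and 0 downregulated, where 1.92% and 4.2% of all genes tested were called. Of the 16, 4 had an unadjusted p under 0.05 and 2 were called by limma-voom, against 4123 of 17353 and 2089 of 16931 over all genes. *Ddx10*, a helicase of the particle that matures the small subunit (chr9:53098635-53248053, - strand), was at 111, 106 and 114 TPM in control KD and at 166, 157 and 146 TPM in *Yy1* KD libraries. The 3 *Yy1* KD libraries were all higher, with a log2 fold change of 0.50 (SE 0.08, limma adjusted p = 0.0202). *Ddx21*, which binds ribosomal DNA and small nucleolar RNAs (chr10:62580251-62602281, - strand), was at 478, 448 and 472 TPM in control KD and at 623, 611 and 556 TPM in *Yy1* KD libraries. No *Yy1* KD library came down to the control KD level, and the log2 fold change was 0.36 (SE 0.07, limma adjusted p = 0.0410). As the most abundant gene of the family, *Ddx21* alone went from 466 ± 15.8 to 597 ± 35.6 TPM. The summed level of the 16 genes was 1389 ± 25.6 TPM in control KD, against 1582 ± 55.0 TPM in *Yy1* KD libraries, and that of the 14 genes without *Ddx10* and *Ddx21* was 812 ± 13.3 and 829 ± 28.2 TPM, which overlapped.

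The 14 ribosome biogenesis genes that were not called had log2 fold changes from -0.31 to 0.31, with 9 above 0 and 5 below. *Ddx54*, a nucleolar helicase of the large subunit, was at 47.6, 54.7 and 49.3 TPM in control KD and at 58.4, 62.5 and 67.7 TPM in *Yy1* KD libraries (0.31, limma adjusted p = 0.108). *Ddx56* was at 68.2 ± 1.69 and 75.1 ± 1.58 TPM (0.14, limma adjusted p = 0.281), and both genes were higher in every *Yy1* KD library. *Ddx52*, a helicase of small subunit maturation, was the only one of the 14 that was lower in every *Yy1* KD library, at 91.8 ± 2.85 and 74.5 ± 7.64 TPM (-0.30, limma adjusted p = 0.110). *Ddx18*, *Ddx24*, *Ddx27*, *Ddx31*, *Ddx47*, *Ddx49*, *Ddx50*, *Ddx51*, *Ddx55*, *Dhx33* and *Dhx37* overlapped between the groups. *Ddx50*, the relative of *Ddx21* that lies 13614 bases from it on chromosome 10, was at 7.49 ± 0.279 and 7.51 ± 0.810 TPM (0.00, 95% interval -0.33 to 0.34). The ratio of *Ddx21* to *Ddx50* was accordingly 64.7, 61.7 and 60.5 in control KD and 89.8, 85.3 and 65.9 in *Yy1* KD libraries, a separation that was narrow in *Yy1* KD replicate 3.

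Of the 4 helicases of transcription and RNP assembly, limma called 1 downregulated, *Ddx17*, and 0 upregulated, where 4.2% and 1.92% of all genes tested were called. At an unadjusted p under 0.05 there was 1, and limma-voom called 1, against 4123 of 17353 and 2089 of 16931 over all genes. *Ddx17* and *Ddx5* are near relatives that act as cofactors of transcription factors, of splicing and of microRNA processing. *Ddx17* (chr15:79527736-79546741, - strand) was at 123, 128 and 112 TPM in control KD and at 86.5, 78.3 and 95.2 TPM in *Yy1* KD libraries. The groups did not overlap, and the log2 fold change was -0.48 (SE 0.10, limma adjusted p = 0.0398). *Ddx5* was at 440.4, 446 and 436 TPM in control KD and at 425, 424 and 423 TPM in *Yy1* KD libraries. Its libraries too were all lower in *Yy1* KD, by a small amount that was not called (log2 fold change -0.06, 95% interval -0.19 to 0.08, limma adjusted p = 0.615). The ratio of *Ddx5* to *Ddx17* was 3.57, 3.49 and 3.89 in control KD and 4.91, 5.42 and 4.45 in *Yy1* KD libraries, which did not overlap. *Ddx1*, a part of the tRNA ligase complex, and *Ddx20*, a part of the SMN complex that loads Sm proteins onto spliceosomal RNA, were not called, with log2 fold changes of 0.10 and 0.03.

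**Figure D4:**
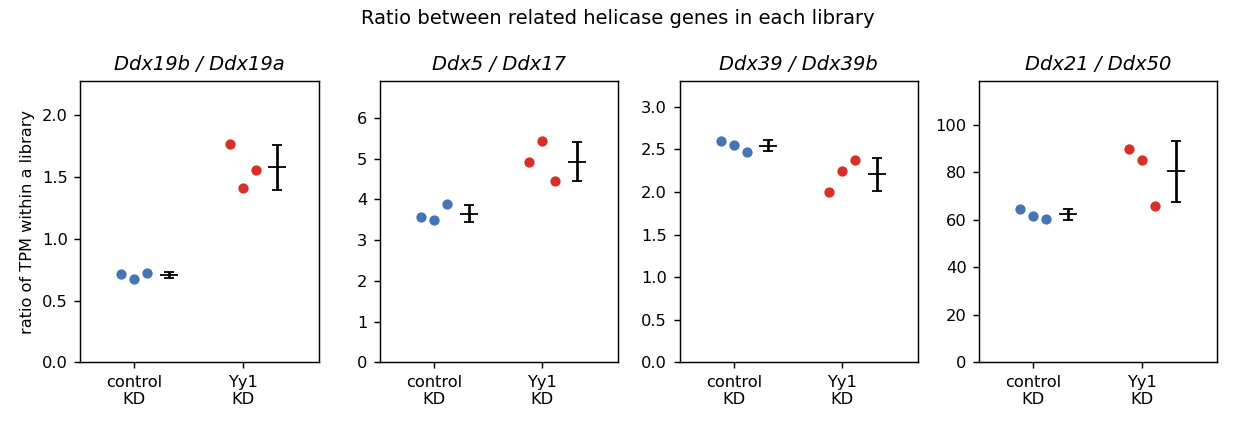
Ratio of TPM between 4 pairs of related helicase genes within each library, control KD in blue and *Yy1* KD in red, with black bars for the mean and SD of 3 libraries and linear axes from 0. The ratio of *Ddx19b* to *Ddx19a* crosses 1, from 0.705 ± 0.0263 to 1.58 ± 0.179, whereas the other 3 pairs keep the same gene in front in every library. Which gene is in front depends on the exon lengths by which TPM divides.

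*Dhx40*, a DEAH box protein to which no role was assigned here (chr11:86768846-86807746, - strand), was upregulated. It was at 58.2, 54.4 and 48.0 TPM in control KD and at 75.6, 81.7 and 69.1 TPM in *Yy1* KD libraries. The groups were well apart, with a log2 fold change of 0.49 (SE 0.10, limma adjusted p = 0.0454). Of the other 3 genes without an assigned role, *Dhx32* and *Dhx57* overlapped between the groups, and *Ddx59* was at 2.13, 2.08 and 1.20 TPM in control KD, against 2.30, 2.99 and 3.66 TPM in *Yy1* KD libraries (log2 fold change 0.51, limma adjusted p = 0.274). *Ddx59* was thus higher in every *Yy1* KD library from a low level at which the spread was wide.

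None of the 4 helicases of translation and decay of mRNA was called by limma, where 1.92% of all genes tested were called upregulated and 4.2% downregulated. None had an unadjusted p under 0.05, and none was called by limma-voom on the recovered read pairs, against 4123 of 17353 and 2089 of 16931 over all genes. *Dhx29*, which helps ribosomes scan structured leaders, was at 39.2 ± 2.08 and 42.9 ± 1.01 TPM (log2 fold change 0.13, 95% interval -0.07 to 0.32). *Ddx6*, which represses and stores mRNA in P-bodies, was at 42.3 ± 1.81 and 37.4 ± 3.96 TPM (-0.18, 95% interval -0.42 to 0.07), and *Dhx36*, which opens G-quadruplexes, was at 14.2 ± 0.291 and 13.8 ± 1.10 TPM (-0.04, 95% interval -0.30 to 0.23). *Dhx34*, of nonsense-mediated decay, was at 5.14 ± 0.822 and 5.69 ± 1.46 TPM.

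The 2 helicases of mitochondrial RNA were not called by limma. Of these, 1 had an unadjusted p under 0.05 and was called by limma-voom, against 4123 of 17353 and 2089 of 16931 over all genes. That gene, *Dhx30*, works in mitochondrial RNA granules and was at 19.8, 19.4 and 18.1 TPM in control KD and at 14.0, 12.1 and 15.3 TPM in *Yy1* KD libraries, with no overlap (log2 fold change -0.44, limma adjusted p = 0.0836, limma-voom adjusted p = 0.0199). *Ddx28*, an assembly factor of the mitochondrial ribosome, was at 27.0 ± 2.31 and 29.1 ± 2.68 TPM and overlapped. Of the sensors of foreign RNA only *Ddx60* was tested. It lay between 2.54 and 5.40 TPM in all 6 libraries, with a log2 fold change of -0.05 (95% interval -0.69 to 0.59). *Ddx11*, a DNA helicase of sister chromatid cohesion, was at 4.36 ± 0.353 and 5.04 ± 0.700 TPM (0.17, limma adjusted p = 0.606).

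Germ line helicases were present at low levels and varied widely between libraries. *Ddx4*, the mouse Vasa gene, was at 10.8, 6.91 and 5.83 TPM in control KD and at 17.3, 18.5 and 11.5 TPM in *Yy1* KD libraries. The *Yy1* KD libraries were all higher, control KD replicate 1 came close to *Yy1* KD replicate 3, and no call was made (log2 fold change 0.94, SE 0.26, limma adjusted p = 0.0892, limma-voom adjusted p = 0.0128). *Ddx4* had the highest log2 fold change of the 47 genes tested. The summed level of 8 oocyte marker genes ran from 48.4 to 66.0 TPM in control KD and from 50.9 to 68.3 TPM in *Yy1* KD libraries, and the part of oocyte RNA in the level of *Ddx4* was not tested. *Ddx43*, a germ cell helicase, was at 6.96, 3.09 and 2.85 TPM in control KD, against 3.69, 2.18 and 1.69 TPM in *Yy1* KD libraries (-0.55, limma adjusted p = 0.408), and overlapped. *Ddx25* was at 0.127 ± 0.0360 and 0.205 ± 0.101 TPM and was not tested.

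The calls rested on few libraries. With any 1 of the 3 control KD libraries left out, limma called none of the 47 genes, with adjusted p from 0.0518 to 0.0599 for *Dhx35* and from 0.0515 to 0.0546 for *Ddx19b*, while 15, 18 and 17 genes had an unadjusted p under 0.05 without control KD replicate 1, 2 and 3. Calls over all 17353 genes fell too, to 46, 48 and 22 upregulated and 88, 151 and 53 downregulated. With all 6 libraries they were 333 and 728. *Dhx35* and *Ddx19b* were called without each of the *Yy1* KD libraries, *Ddx10* also without *Yy1* KD replicate 3, and *Ddx41*, *Ddx17*, *Ddx21* and *Dhx40* in none of the 6 sets of 5 libraries. The fold changes moved little by comparison, from -1.93 to -1.60 for *Dhx35*, from 0.79 to 0.94 for *Ddx19b* and from 0.46 to 0.55 for *Ddx10*.

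Other helicases of the superfamily and known partners of these proteins were examined in 6 lists of 77 genes, of which 74 were tested. Limma called 2 of the 74 upregulated and 4 downregulated, where 1.92% and 4.2% of all genes tested were called, so the counts were near those shares. The median log2 fold change of the 74 was 0.01. Among 14 helicases tested that carry another kind of symbol, *Eif4a1*, the DEAD box protein of cap-dependent translation initiation, rose from 813 ± 17.9 to 1085 ± 15.4 TPM (log2 fold change 0.42, limma adjusted p = 0.0192). *Dicer1*, which cuts microRNA precursors, fell from 31.7 ± 0.579 to 20.6 ± 1.72 TPM (-0.60, limma adjusted p = 0.0235), and the 14 had a median of -0.09. *Eif4a1* was more abundant than any of the 50 Ddx and Dhx genes.

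G-patch proteins bind DEAH box helicases and switch them on, and limma called 3 of the 22 tested downregulated and 0 upregulated, where 4.2% and 1.92% of all genes tested were called. At an unadjusted p under 0.05 there were 5, and limma-voom called 5 of the 22, against 4123 of 17353 and 2089 of 16931 over all genes. *Rbm10*, a splicing regulator encoded on the X chromosome, fell from 76.4 ± 6.20 to 43.6 ± 2.44 TPM (log2 fold change -0.80, limma adjusted p = 0.0114). *Gpatch1*, which is known as a partner of *Dhx35* in the spliceosome, was at 22.2, 20.6 and 22.8 TPM in control KD and at 15.7, 14.3 and 15.9 TPM in *Yy1* KD libraries (-0.48, limma adjusted p = 0.0450). *Gpatch4*, a nucleolar G-patch protein that stimulates *Dhx15*, fell from 57.6 ± 3.64 to 42.4 ± 3.60 TPM (-0.44, limma adjusted p = 0.0484). Both *Dhx35* and its partner *Gpatch1* were thus lower in every *Yy1* KD library. The 22 genes had a median of -0.07.

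Of 15 TREX and export genes, *Alyref*, the adaptor that *Ddx39b* helps load onto mRNA, rose from 75.9 ± 0.856 to 120 ± 3.71 TPM (log2 fold change 0.66, limma adjusted p = 0.00855). Limma called 0 of the 15 downregulated, 3 had an unadjusted p under 0.05, and limma-voom called 2. Over all genes tested, limma called 1.92% upregulated and 4.2% downregulated, 4123 of 17353 had an unadjusted p under 0.05, and limma-voom called 2089 of 16931. The 8 genes of the SMN complex, the 5 of the tRNA ligase complex and the 10 tested of 12 that act with *Ddx6* in decapping gave 0 calls by limma, with 0, 2 and 2 genes at an unadjusted p under 0.05 and 0, 1 and 0 genes called by limma-voom. Their medians were 0.07, 0.25 and 0.06 on the log2 scale.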

How the data were processed

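The labels gave the group and replicate of the RNA-seq libraries of control KD and *Yy1* KD morulae, 3 of each. Per the submitters' processing notes and methods, the authors trimmed reads with Trim Galore 0.6.7, aligned them to mm10 with HISAT2 2.2.1, removed ribosomal RNA reads with bedtools, counted read pairs with featureCounts 2.0.1 over GENCODE vM25 (pairs on overlapping genes split into fractions, strand ignored) and deposited TPM. The authors tested counts with edgeR, which TPM does not suit.

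Here, genes at 1 TPM or more in at least 3 of 6 libraries (17353) were tested with limma 3.58.1 (R 4.3.3) on log2(TPM + 1) with a variance trend, two-sided, Benjamini-Hochberg adjusted. Fold changes on this scale understate those of low genes. ± is the SD. Tested on simulated data of this comparison over 17353 genes, the fit called 42 of 100 genes with a log2 change of 1, 79 of 100 with a log2 change of 2 and 6 of 17153 without a change. The changed genes were drawn from all genes tested, whose median SE was 0.208, against 0.098 for the helicase genes. Changes below 1 were not simulated, so these rates do not give the sensitivity for the helicase genes.

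Coordinates and exon lengths came from GENCODE vM21 on the same assembly, where 54312 identifiers (98.1%) matched by version, all 50 helicase genes included. Read pairs were TPM times exon length, divided by a unit inferred for each library from low values of genes without exonic overlap. They came out whole (within 0.01) for 80.6% to 81.6% of values under 20 pairs and as multiples of 1/6 for 99.3% to 99.4%. Promoter windows came from RefSeq (GRCm38.p6). Scripts used Python 3.11.15 with matplotlib 3.10.9, scipy 1.17.1, numpy 2.4.6 and pandas 2.3.3.

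The helicase genes, their roles and the partner lists were chosen with earlier results of these data known, and the roles and lists were written from general knowledge. Genes named are those called, the most abundant gene of each role, the 3 highest and 3 lowest fold changes not called, genes not tested and called partners. Any other gene was picked with its values in view, and the list of Y-linked genes was added late in the same way. The protein motifs of the helicases were not analysed here.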

Additional observations from a re-analysis of the deposited data

How the results depend on the processing

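The counts depended on how the variance was modelled and on single libraries. Without the variance trend, 1 helicase gene was upregulated and 1 downregulated (all genes: 132 and 382), and 2 partner genes were called. Without a filter on low values, 2 were upregulated and 2 downregulated (77 and 270), with 3 partner genes. With limma-voom on recovered read pairs, 8 were upregulated and 5 downregulated (809 and 1280), with 12 partner genes, and the 6 added were *Ddx23*, *Ddx4*, *Dhx15*, *Dhx16*, *Dhx30* and *Dhx38*. With the replicate number as a replicate block, 0 were upregulated and 1, *Dhx35*, downregulated (69 and 218), with 2 partner genes and 17 helicase genes at an unadjusted p under 0.05. The labels do not say what a number marks, and deviations of same-numbered libraries correlated at -0.00388, 0.0319 and 0.0747, so the numbers were not taken to pair the libraries.

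Leaving out 1 library at a time gave 0 to 2 upregulated and 0 to 1 downregulated helicase genes, 1 to 4 partner genes, and 22 to 92 upregulated and 53 to 326 downregulated genes in all. No helicase gene was called by limma without control KD replicate 1, 2 or 3. The causes were not tested. *Ddx60* reversed without control KD replicate 3 (0.03) and without *Yy1* KD replicate 1 (0.17), within a range of -0.26 to 0.17. Median-ratio scaling, the higher filter, robust variances, weights per library and a pseudocount of 0.1 each kept the same 7 calls and at most added *Dhx16*. Quantile normalization added *Dhx16* and dropped *Ddx17* and *Ddx21*, 44 of the 47 genes kept the sign of their fold change, and 58.5% of all calls were downregulated in place of 68.6%. The median over the helicase genes lay between 0.06 and 0.16 in all alternatives. The full motif was in the windows of 18.2% of the helicase genes and 10.4% of the genes tested that had a window. The core GCCAT was in the windows of 23 helicase genes (52.3%), against 43.9% of genes tested. When only the 150 bases nearest the start were searched, the full motif was in those of 4 (9.09%), against 7.35%. No test was made of these shares. TPM keeps no counting error of its own, and the low genes *Ddx4*, *Ddx43* and *Ddx60* had the widest intervals of the 47.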

Other observations

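Exonic overlap with another gene was found for 14 of the 50 helicase genes, and the reads of such pairs were divided without regard to strand. Of the 13 tested, 0 were upregulated and 2 downregulated by limma. Among the 13, 5 had an unadjusted p under 0.05 and limma-voom called 3, against 4123 of 17353 and 2089 of 16931 over all genes. Of the 34 tested without overlap, limma called 4 upregulated and 1 downregulated, where 1.92% and 4.2% of all genes tested were called. The difference between these counts was not tested. The clearest neighbour was *Bccip*, a factor of DNA repair, which overlaps *Dhx32* by 204 bases (chosen after its values were seen). *Bccip* was at 95.3, 92.5 and 90.2 TPM in control KD and at 46.6, 45.1 and 46.1 TPM in *Yy1* KD libraries, and it fell to 49.6% of control (limma adjusted p = 0.00222). *Dhx32* itself was at 54.6 ± 2.50 and 60.5 ± 9.01 TPM (limma adjusted p = 0.555), so the 2 genes of the pair did not move together. *Kdelr3*, which overlaps *Ddx17* by 4 bases, was lower in every *Yy1* KD library, at 16.1 ± 0.723 and 8.95 ± 3.53 TPM (limma adjusted p = 0.0930).

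The helicase genes lie on 15 chromosomes, with 8 on chromosome 11 and 7 on chromosome 8, and 7 pairs of them lie less than 1000000 bases apart. No pair held more than 1 called gene. Promoter windows of the helicase genes had a median GC content of 59.7%, against 60.3% for genes tested and 52.7% for all windows.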
